A study of Caenorhabditis elegans with 2 samples.

Results

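The genes described here are 10 members of the TGF-beta signalling pathways that control dauer entry and body size in Caenorhabditis elegans: the ligand gene dbl-1, the receptor genes daf-1, sma-6 and daf-4, the Smad genes daf-8, sma-2, sma-3 and sma-4, and the opposing pair daf-3 and daf-5. They were chosen by gene symbol. All 18 probe sets that the platform annotation gives to exactly 1 gene with one of these symbols were taken, from 20766 such probe sets for 17118 genes. Of the 10 genes, 3 had 1 probe set, 6 had 2 and 1 (daf-5) had 3.

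The arrays came from total RNA of whole nematodes grown on HT115, an Escherichia coli strain that produces the double-stranded RNA used to start RNA interference (RNAi). One array is labelled as RNAi of imp-2, a gene of the intramembrane aspartyl proteases related to presenilins. The other, the control, is labelled as RNAi of green fluorescent protein (GFP). Each group therefore holds 1 array, and the sources used here do not give the strain, genotype, age or stage of the animals. No difference below has a replicate check or a p-value, and precision is limited by this number of arrays. The bacterial feeding is common to both groups. The labels also name a mammalian brain region beside the whole animal, although a nematode has no such region.

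TGF-beta ligands bind a complex of type I and type II receptor kinases, which phosphorylate receptor-regulated Smads. These join a common-mediator Smad and regulate transcription. In C. elegans the ligand DAF-7 signals through DAF-1 and DAF-4 to DAF-8 and DAF-14, which counteract DAF-3 and DAF-5 and so keep larvae out of the dauer stage, a stress-resistant alternative larval form. The ligand DBL-1 signals through SMA-6 and DAF-4 to SMA-2, SMA-3 and SMA-4, and loss of this branch makes a small animal. The epidermis is a main site of its action on body size.

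The deposited intensities had the same overall level, with a mean of 150.04 on each array after trimming 2% at each end, and log2 intensities correlated across probe sets with a Pearson r of 0.912. This is a correlation across genes, which are not replicates. Without the controls, the median of the remaining 22548 probe sets was 35.3 under the imp-2 RNAi label and 30.1 under the GFP RNAi label, and each served as that array's floor, to which lower values were raised before a ratio was taken. The highest of 32 controls for bacterial and yeast transcripts that the sample lacks reached 14.4 under the imp-2 RNAi label and 15.3 under the GFP RNAi label. The target itself did not settle the labels. One imp-2 probe set read 1754 under the imp-2 RNAi label and 2318 under the GFP RNAi label, and the other read 2517 under the imp-2 RNAi label and 510 under the GFP RNAi label. Every direction below is for this reason a direction between labels.

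The pathway was split by brightness. A probe set passed the filter when its log2 intensity, averaged over both arrays, exceeded the median of this average, which corresponds to an intensity of 32.1. This kept 12 of the 18 probe sets, from 7 of the 10 genes. The other 6 read under the floor on both arrays. They comprised every probe set of dbl-1, sma-2 and daf-8 and 1 of the 3 of daf-5. Intensities of different probe sets were not ranked against each other, since probes differ in how strongly they bind.

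**Figure D1:**
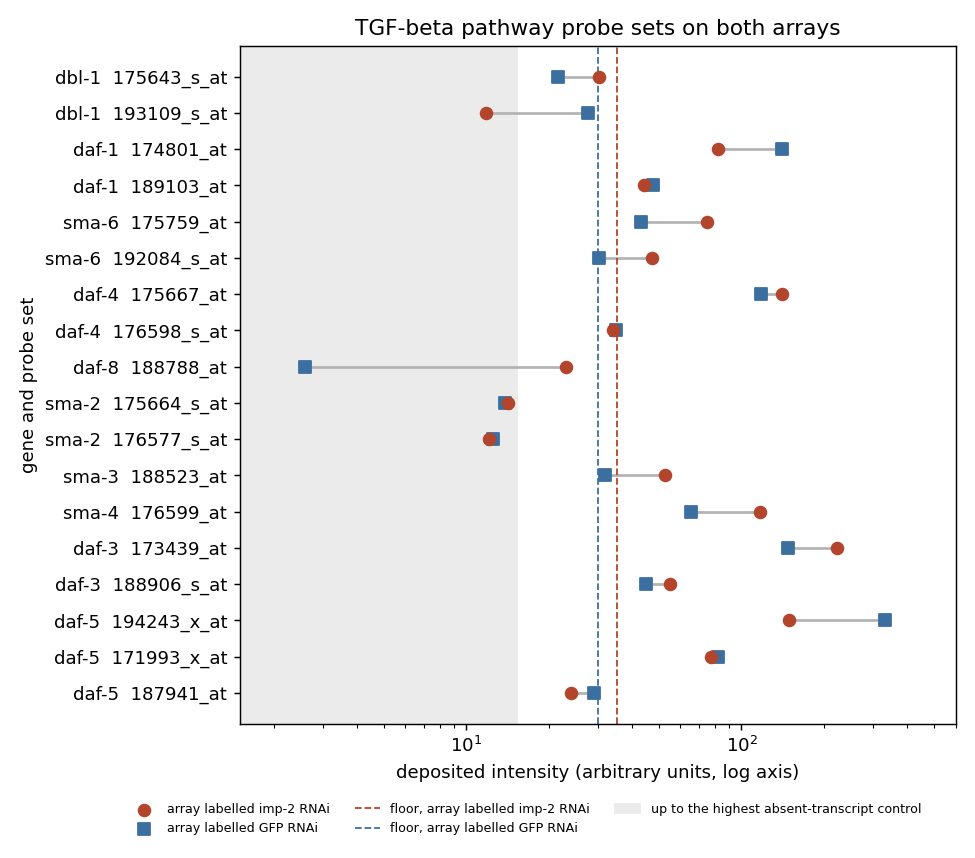
Deposited intensity (log axis) of the 18 probe sets of the 10 genes on the array labelled imp-2 RNAi (circles) and the array labelled GFP RNAi (squares), 1 array each. Dashed lines are the floors (35.3 and 30.1), and the grey field ends at the highest control for an absent transcript (15.3). All probe sets of dbl-1, sma-2 and daf-8 lie left of the floor of their own array.

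Of the 12 probe sets above the filter, 0 were higher under the imp-2 RNAi label by 2-fold or more, 1 was lower by that much and 11 differed less. Over all 10677 probe sets of 1 gene above the filter, 8.69% were higher by 2-fold or more and 2.51% were lower. The median log2 ratio (imp-2 RNAi over GFP RNAi labels, centred on the median of all genes above the filter) was 0.27 over the 12, against −0.02 over all of them. The members above the filter had a mean log2 intensity between 5.11 and 7.80. The 5789 probe sets in this range had a median log2 ratio of 0.09, with 13.02% higher by 2-fold or more and 3.04% lower. The log2 ratio was positive for 8 of the 12 members and for 55.8% of the probe sets in this brightness range. In RNA of whole animals, fewer cells of a type and less RNA per cell cannot be told apart.

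**Figure D2:**
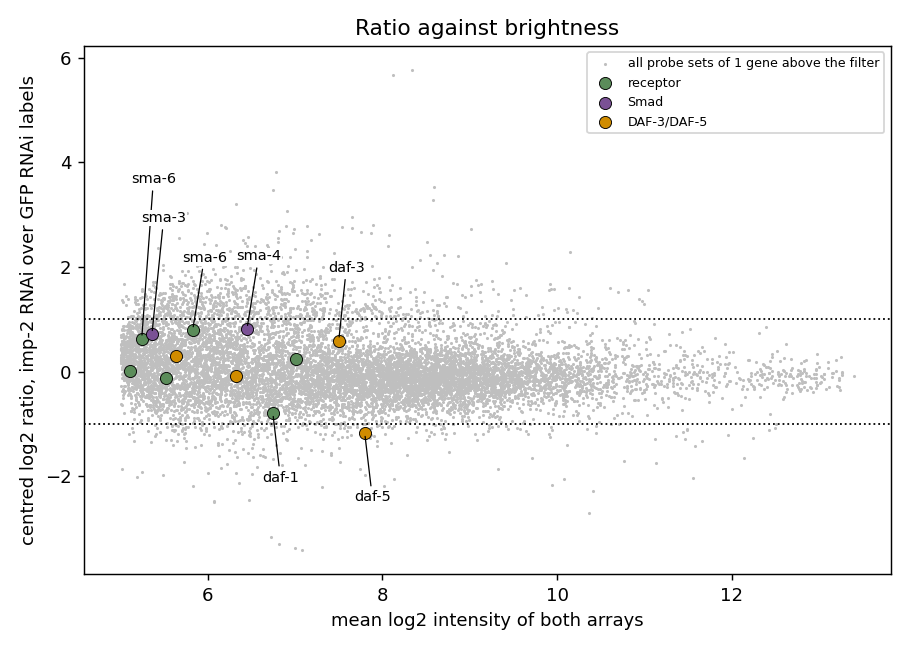
Centred log2 ratio (imp-2 RNAi over GFP RNAi labels) against mean log2 intensity for the 10677 probe sets of 1 gene above the filter (grey), with the 12 pathway probe sets coloured by role. Dotted lines mark 2-fold, and only 1 of the coloured points, a daf-5 probe set at −1.17, lies outside them.

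The ligand gene dbl-1 lay under the floor on both arrays. DBL-1 is a bone morphogenetic protein-like ligand secreted mainly by neurons. Probe set 175643_s_at read 30.3 under the imp-2 RNAi label and 21.6 under the GFP RNAi label. Probe set 193109_s_at read 11.8 under the imp-2 RNAi label and 27.7 under the GFP RNAi label. The probe sets pointed in opposite directions, all 4 readings lay under their floors, and the reading of 11.8 lay within the range of the absent-transcript controls, so no fold is given.

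Of the receptor genes, the type I receptor gene of the body-size branch, sma-6, had higher readings under the imp-2 RNAi label on both of its probe sets. Probe set 175759_at read 74.97 under the imp-2 RNAi label and 43.1 under the GFP RNAi label, 1.73-fold higher, a log2 ratio of 0.79. Probe set 192084_s_at read 47.3 under the imp-2 RNAi label and 30.4 under the GFP RNAi label, 1.55-fold higher, a log2 ratio of 0.63, although the reading of 30.4 lay just above the floor of 30.1. A scale for such values comes from 2489 pairs of probe sets of the same gene, whose log2 ratios differed with a spread of 0.37 for a single probe set. These pairs span every brightness above the filter, not only that of the members, and include suffixed probe sets. This spread describes disagreement between probe sets on these arrays and holds nothing about the variation between cultures. Both sma-6 ratios exceeded it, and they differed from each other by 0.16. With intensity-dependent centring, described below, the ratio of 192084_s_at was 0.36, under this spread.

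The type I receptor gene of the dauer branch, daf-1, pointed the other way. Its brighter probe set (174801_at) read 81.9 under the imp-2 RNAi label and 141 under the GFP RNAi label, 1.73-fold lower, a log2 ratio of −0.79. Of all probe sets above the filter, 4.8% had a lower ratio. The dimmer probe set (189103_at) read 44.1 under the imp-2 RNAi label and 47.8 under the GFP RNAi label, with a log2 ratio of −0.13. The 2 ratios had the same sign and differed by 0.67, more than the difference in 80.7% of same-gene pairs. The brighter probe set alone exceeded the spread between probe sets.

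The type II receptor gene daf-4, whose product serves both branches, differed by less than the spread between probe sets. Probe set 175667_at read 141 under the imp-2 RNAi label and 118 under the GFP RNAi label (log2 ratio 0.24). Probe set 176598_s_at read 34.0 under the imp-2 RNAi label, below the floor of that array, and 34.9 under the GFP RNAi label. Its log2 ratio of 0.01 became −0.04 with no floor, −0.18 after quantile normalization and −0.27 with intensity-dependent centring, so it has no settled sign.

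Among the Smad genes, sma-3 and sma-4 read above the floor on both arrays and were higher under the imp-2 RNAi label, and daf-8 and sma-2 read under it. The receptor-regulated Smad gene sma-3 read 52.9 under the imp-2 RNAi label and 32.0 under the GFP RNAi label, 1.64-fold higher, a log2 ratio of 0.72. The reading of 32.0 lay close to the floor of 30.1. The common-mediator Smad gene sma-4 read 116 under the imp-2 RNAi label and 65.7 under the GFP RNAi label, 1.76-fold higher, a log2 ratio of 0.81. This was the highest ratio among the 12 probe sets, and 87.8% of all probe sets above the filter had a lower one. Each of these genes had a single probe set, so no second reading of the same transcript was available.

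The partner of these Smads, sma-2, stayed at the level of the absent-transcript controls. Its probe sets read 14.1 and 12.1 under the imp-2 RNAi label, against 13.8 and 12.4 under the GFP RNAi label, and all 4 readings lay below the highest such control. A difference in sma-2 was not detectable at this signal, and no fold is given. The dauer-branch Smad gene daf-8 read 23.04 under the imp-2 RNAi label and 2.59 under the GFP RNAi label. Both readings lay under their floors and the one under the GFP RNAi label lay within the range of the absent-transcript controls, so no fold is given for daf-8.

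The genes that the dauer branch counteracts differed in direction from each other. DAF-3 is a common-mediator-like Smad, and DAF-5, a protein of the Sno and Ski family, is its partner. On the brighter daf-3 probe set (173439_at) the reading was 223 under the imp-2 RNAi label and 147 under the GFP RNAi label, 1.51-fold higher, a log2 ratio of 0.59. The dimmer one (188906_s_at) read 55.1 under the imp-2 RNAi label and 44.8 under the GFP RNAi label, with a log2 ratio of 0.29, which is under the spread between probe sets. Both daf-3 ratios were positive and differed by 0.30.

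The daf-5 gene held the only probe set past 2-fold, and its probe sets disagreed in size. Probe set 194243_x_at read 149 under the imp-2 RNAi label and 333 under the GFP RNAi label, 2.25-fold lower, a log2 ratio of −1.17. Of all probe sets above the filter, 1.3% had a lower ratio. Probe set 171993_x_at read 77.8 under the imp-2 RNAi label and 82.0 under the GFP RNAi label, with a log2 ratio of −0.09, which became 0.01 when the centre was taken over genes above the 75th percentile of brightness. The difference of 1.08 between these ratios was larger than that of 95.1% of same-gene pairs. The remaining probe set, 187941_at, read 24.0 under the imp-2 RNAi label and 29.2 under the GFP RNAi label, under the floor on both arrays. The suffix of the first 2 marks probes that can match other transcripts too, and without suffixed probe sets daf-5 had no probe set above the filter and no member passed 2-fold.

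**Figure D3:**
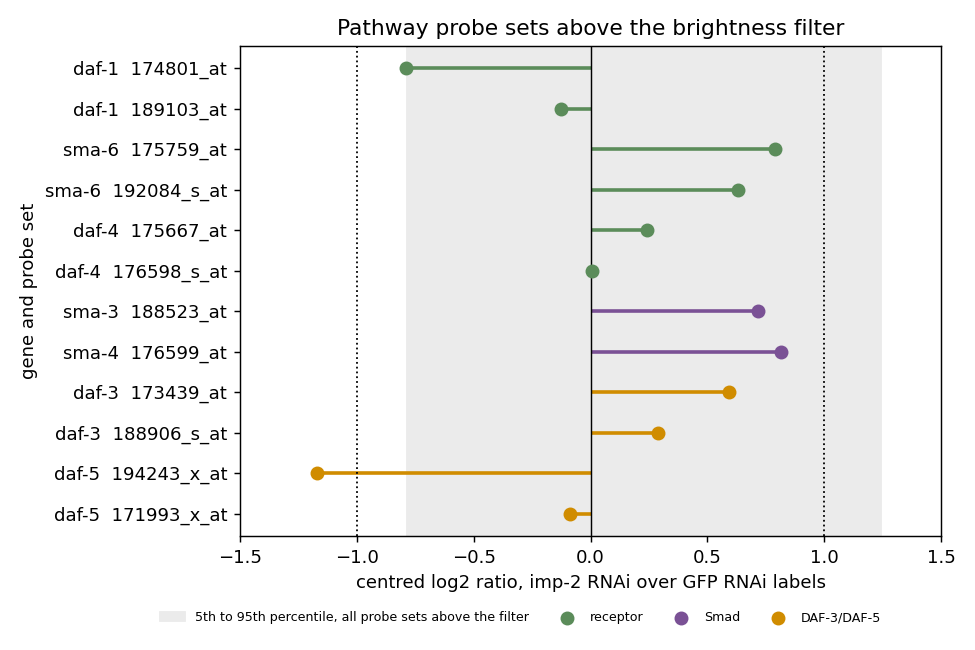
Centred log2 ratio (imp-2 RNAi over GFP RNAi labels) of the 12 probe sets above the filter, ordered and coloured by role. Each point is 1 probe set on 1 pair of arrays, dotted lines mark 2-fold, and the grey band spans the 5th to the 95th percentile of all probe sets above the filter (−0.78 to 1.24). The sma-6, sma-3 and sma-4 points lie between 0.63 and 0.81, and the brighter daf-1 and daf-5 points lie at −0.79 and −1.17.

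At a lower threshold of 1.5-fold, 5 of the 12 probe sets were higher under the imp-2 RNAi label and 2 were lower. The higher ones were both sma-6 probe sets, sma-3, sma-4 and the brighter daf-3 probe set, and the lower ones were the brighter probe sets of daf-1 and daf-5. Over all probe sets above the filter 17.5% were at least 1.5-fold higher and 10.4% lower, and in the members' brightness range 25.7% were higher and 11.6% lower. Ratios of dim probe sets ran higher on these arrays. With intensity-dependent centring, which removes that trend, 2 of the 12 members were at least 1.5-fold higher (sma-4 at 0.65 and daf-3 at 0.61 on the log2 scale), and the same 2 were lower. Over all probe sets 14.6% were then higher (19.6% in the members' brightness range) and 12.4% lower. With quantile normalization 3 members were higher and 2 lower, where 15.1% of all probe sets were higher (20.2% in that range) and 11.9% lower. In the main run, the 5 of 12 higher members were more than the shares of 17.5% and 25.7%. The members' counts under both alternatives were nearer to theirs. No difference between a count and its share was tested. The sma-6, sma-3 and sma-4 probe sets kept a positive ratio in every alternative run that includes them, at least 0.36, 0.45 and 0.65. Of these lowest values, that of sma-6 lay under the spread of 0.37 between probe sets.

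The other genes of the dauer branch lay within 2-fold. Of 7 such genes, 6 passed the filter and 0 differed by 2-fold or more. The median log2 ratio was −0.06, and −0.38 over those whose brightest probe set has no suffix. Of all 8553 genes above the filter, 9.72% were higher by 2-fold or more and 2.27% lower, with a median of 0. Here and below each gene is given by its brightest probe set. The ligand gene daf-7, expressed mainly in a pair of head sensory neurons, read 40.99 under the imp-2 RNAi label and 69.4 under the GFP RNAi label, a log2 ratio of −0.77. The gene egl-4, a cyclic GMP-dependent protein kinase that acts in body size and sensory behaviour, read 472 under the imp-2 RNAi label and 629 under the GFP RNAi label (log2 ratio −0.43, and −0.68 on its other probe set).

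The other genes of the body-size branch also lay within 2-fold. Of 14 listed, 12 had a probe set and 11 passed the filter, with a median log2 ratio of −0.28. Over the genes whose brightest probe set has no suffix the median was 0.10, so it has no settled sign. The largest floored log2 ratios were those of tsp-14 and lon-1. The ratio of sma-10 was also 0.77 and is a lower bound. It read 51.8 under the imp-2 RNAi label and 26.3 under the GFP RNAi label, under that array's floor. The tetraspanin gene tsp-14, which promotes signalling in this branch, read 85.1 under the imp-2 RNAi label and 47.8 under the GFP RNAi label (log2 ratio 0.82), with its other probe set under both floors. The gene lon-1, a secreted cysteine-rich protein that limits body length and is repressed by DBL-1 signalling, read 191 under the imp-2 RNAi label and 111 under the GFP RNAi label (log2 ratio 0.77). The TGF-beta family genes outside both branches, the ligand genes unc-129 and tig-2 and the Smad gene tag-68, were under the floor on both arrays.

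Of 8 genes listed because their transcripts are known to respond to DBL-1 signalling, 6 had a probe set and 4 passed the filter. All 4 were higher under the imp-2 RNAi label, with a median log2 ratio of 1.35. At least 2-fold higher were 3 of them, against 9.72% of all genes above the filter. The caenacin gene cnc-2, an antimicrobial peptide of the epidermis, read 203 under the imp-2 RNAi label and 27.0 under the GFP RNAi label, under that array's floor, which is at least 6.69-fold higher. The cuticle collagen gene rol-6 read 91.6 under the imp-2 RNAi label and 19.7 under the GFP RNAi label, which is at least 3.02-fold higher. The lysozyme gene lys-8 read 508 under the imp-2 RNAi label and 233 under the GFP RNAi label, which is 2.16-fold higher. The fourth was lon-1, given above, which DBL-1 signalling represses. The list was not sorted by direction of response, so a shared sign in it gives no direction of signalling. Both cnc-2 and rol-6 passed the filter through their reading under the imp-2 RNAi label, so the count is a description only. The probe set of cnc-2 also carries a suffix for possible matches to other transcripts. The remaining 2, mab-21 and col-41, were under the floor on both arrays.

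**Figure D4:**
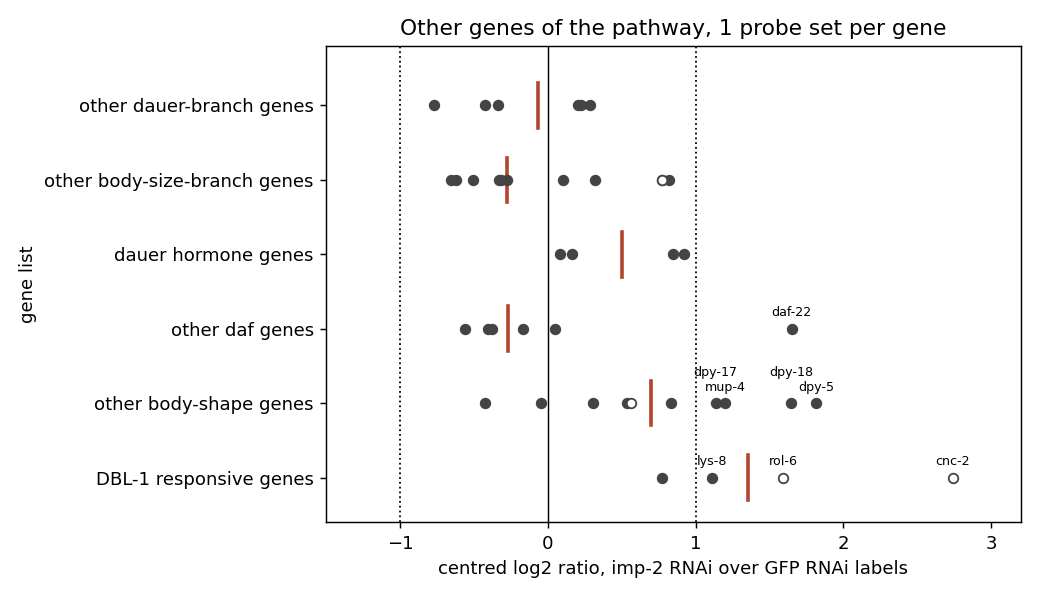
Centred log2 ratio (imp-2 RNAi over GFP RNAi labels) of the genes above the filter in 6 lists, 1 point per gene from its brightest probe set. Open points have 1 array under its floor, red bars are list medians, and dotted lines mark 2-fold. The other dauer-branch and body-size-branch genes lie inside the dotted lines, and 3 of the 4 DBL-1 responsive genes lie to their right.

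Dauer formation is also set by a steroid hormone, dafachronic acid, and its receptor DAF-12. Of 9 genes of this hormone route, 4 passed the filter and 0 were at least 2-fold apart. The median log2 ratio was 0.51, and 0.16 over those whose brightest probe set has no suffix. The Niemann-Pick C homologues ncr-1 and ncr-2, which act in sterol trafficking, had log2 ratios of 0.92 and 0.85. Of 12 other daf genes, 11 had a probe set and 6 passed the filter, with a median of −0.27. This median was 0.04 with the mean over the probe sets of a gene, so it has no settled sign. Among these daf genes, daf-22, a peroxisomal thiolase that makes dauer pheromone, read 225 under the imp-2 RNAi label and 70.9 under the GFP RNAi label, which is 3.14-fold higher.

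Of 16 other genes listed for body shape, 10 passed the filter, with a median log2 ratio of 0.70. The list includes egl-4, also counted above in the dauer branch. Of the 10, 4 were higher under the imp-2 RNAi label by 2-fold or more and 0 were lower, against 9.72% and 2.27% of all genes above the filter. The 4 were the cuticle collagen genes dpy-5 (3.52-fold) and dpy-17 (2.20-fold), the prolyl 4-hydroxylase gene dpy-18 (3.14-fold) and mup-4 (2.30-fold), a transmembrane protein of epidermal attachments. Further probe sets of dpy-18 gave 2.80 and 3.07 as log2 ratios, and a further one of mup-4 gave 1.24.

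Markers of the tissues that whole animals hold were read in the same way, with intensities summed over every listed marker that had a probe set, whether above the filter or not. The counts below stand against 9.72% of all genes above the filter that were higher by 2-fold or more and 2.27% lower. Of 11 epidermis markers above the filter 3 were higher under the imp-2 RNAi label by 2-fold or more and 0 lower (median 0.17), and all 12 summed to 2711 under the imp-2 RNAi label and 2559.5 under the GFP RNAi label. Of 9 intestine markers above the filter 4 were higher and 0 lower (median 0.93), and all 11 summed to 7996 under the imp-2 RNAi label and 6059.7 under the GFP RNAi label. Of 11 neuron markers above the filter 1 was higher and 0 lower (median −0.25), a share near that of all genes, and all 12 summed to 2509.5 under the imp-2 RNAi label and 2549.5 under the GFP RNAi label.

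The remaining marker lists spanned muscle and the germ line. Muscle and pharynx markers had 0 of 8 above the filter past 2-fold, with a median of 0.20. The median was −0.28 over unc-22 and tnt-4 alone, whose brightest probe set has no suffix. All 10 muscle and pharynx markers summed to 6999.8 under the imp-2 RNAi label and 5983 under the GFP RNAi label. Oocyte and germ line markers had 0 of 10 past 2-fold (median −0.09), and these summed to 14883 under the imp-2 RNAi label and 16913 under the GFP RNAi label. Sperm markers had 2 of 5 higher by 2-fold or more and 0 lower (median 1.0), and all 9 with a probe set summed to 4529 under the imp-2 RNAi label and 3174 under the GFP RNAi label. The higher sperm marker spe-41 likewise read under the floor under the GFP RNAi label and passed the filter through its other reading. By their brightest probe set, 1 epidermis, 1 neuron, 0 germ line and 3 sperm markers lay under both floors. So did 2 intestine markers, among them the regulator elt-2, and 2 muscle and pharynx markers, among them the regulator hlh-1. The part of tissue makeup in the pathway ratios was not tested.

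Genes next to the 10 members on the chromosomes lay on both sides of 0. Of 20 neighbouring protein-coding genes, 18 had a probe set and 13 passed the filter. Their floored log2 ratios lay between −0.80 and 0.82, with a median of −0.31, and by these ratios 0 differed by 2-fold or more. The lowest, that of clec-158, is only a bound. Its deposited readings were 22.47 under the imp-2 RNAi label and 61.25 under the GFP RNAi label, more than 2-fold apart. Beside sma-3, which had a ratio of 0.72, the neighbours clec-158 and cra-1 had log2 ratios of −0.80, with the reading under the imp-2 RNAi label below its floor, and −0.39. The sma-6 neighbours C32D5.4 and set-4 had 0.68 and −0.68. These 4 neighbours were named after their values were seen.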

How the data were processed

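The intensities were deposited by the authors as 1 linear value per probe set and array, already summarised and scaled; the array type is per the labels, and the sources used here do not give the methods of summarisation, background correction and scaling. Scaling to one level can hide a shift of all genes, and unknown background handling makes dim values least reliable. Probe sets were named from the platform annotation, whose gene IDs were matched to the WBcel235 gene table (all 18 member probe sets matched), used for names and gene order only.

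Values under an array's median were raised to it, converted to log2, subtracted (imp-2 RNAi minus GFP RNAi) and centred on the median of the 8553 genes above the filter, a shift of 0.01. A fold against a floored value is a lower bound. Differences of at least 2-fold were counted. No test was possible with 1 array per group. The members and lists were chosen with earlier results of these data known. Named were all member probe sets and, of each other pathway list, genes past 2-fold or else the 2 with the largest absolute ratio. Marker lists are given by counts. Members of fully unmeasured lists were named after seeing the values, as were sma-10, mab-21, col-41, elt-2, hlh-1, unc-22, tnt-4, bli-1, elt-7 and spe-41. No genes were named for a like pattern, since 2 arrays give 1 ratio. Steps ran in Python 3.11.15 with statsmodels 0.14.6 and were tested on simulated data. Alternatives changed the floor, centring, normalization, filter, threshold and probe set choice.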

Additional observations from a re-analysis of the deposited data

How the results depend on the processing

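The daf-5 probe set was the 1 member past 2-fold under each alternative except those without suffixed probe sets, where the count was 0, and at 1.5-fold, where it was 7. The median over the members was 0.27 in the main run. It rose to 0.59 with the brightest probe set per gene and to 0.58 without suffixed probe sets. It was 0.12 after quantile normalization and 0.10 with intensity-dependent centring, and fell to −0.20 with the filter at the 75th percentile, which left 2 probe sets. Over all lists of other genes apart from the markers, 8 genes were past 2-fold in the main run. Of these, 0 were in the lists of other dauer-branch and body-size-branch genes. The number became 4 with the filter at the 75th percentile and 5 without suffixed probe sets, where fewer genes were tested, and 9 with intensity-dependent centring. Of the 12 member ratios, 10 kept their sign under every alternative that gave them a value; the dimmer daf-4 ratio changed sign in 4 of 7 and the second daf-5 ratio in 1 of 7. The medians of other daf genes and other dauer-branch genes became 0.22 and 0.21 with no filter, where floored values enter, and that of the DBL-1 responsive genes became 0.94. The members past 1.5-fold were counted under other centrings after the data were seen (4 with intensity-dependent centring and 5 after quantile normalization). No paired analysis was possible because each group has 1 array. Readings near the floor limit sma-6, sma-3 and daf-4.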
